A study of Mus musculus with 22 samples.

Results

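The genes described are the 8 that make, break down and sense prostaglandin E2 (PGE2): Ptgs2, Ptges, Ptges2, Hpgd, Ptger1, Ptger2, Ptger3 and Ptger4. They are the named members of the pathway on which sulindac acts, and 8 of the 19505 genes named on the arrays. Each had 1 probe set, so no choice between probe sets arose. RNA of 22 colon tumours from male FVB/N mice was hybridised to Clariom S arrays, 1 array for each mouse, and all tumours had been induced with azoxymethane, a colon carcinogen. The control group held 6 mice on a low-fat diet with 10% of energy from fat and no sulindac. The obese group held 5 mice on a high-fat diet with 60% of energy from fat and no sulindac. The obese sulindac group held 6 mice on the same high-fat diet that received sulindac, a nonsteroidal anti-inflammatory drug. The formerly obese group held 5 mice that had been fed high-fat diet and were then switched to low-fat diet, without sulindac. Age, the length of each diet and the dose and timing of sulindac were not given in the sources used here.

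PGE2 is made from arachidonic acid in steps. Cyclooxygenases form prostaglandin H2, and the terminal PGE synthases turn it into PGE2. The enzyme 15-hydroxyprostaglandin dehydrogenase oxidises PGE2 to an inactive product, and 4 G protein-coupled receptors, EP1 to EP4, carry its signal. In colorectal tumours cyclooxygenase-2 is commonly raised and the dehydrogenase commonly lowered relative to normal mucosa. Sulindac blocks the activity of cyclooxygenases, which an RNA level does not show. No normal colon was among the arrays, and Ptgs1, which encodes cyclooxygenase-1, was not analysed here.

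Levels are log2 array signals, so a difference of 1 is a doubling. They ran from 3.34 to 19.49 over all probe sets, and the medians of the arrays lay between 6.67 and 6.83. Probe sets bind with different strength, so each gene is compared with itself across tumours and not with another gene. Epithelial markers, 8 of 8 measured, had a mean level between 15.2 and 16.2 in every tumour (Epcam averaged 17.08 and Cdh1 17.62). No other tissue was on the arrays, so these levels do not test the tissue label. The tumour of Mouse_134, formerly obese, stood apart: its absorptive colonocyte marker mean was 14.7 and the next highest tumour 12.8, and its smooth muscle marker mean was 11.2 where the others were at most 9.89. In whole tumour RNA, fewer cells of a type and less RNA per cell cannot be told apart.

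None of the 8 genes passed the test in any comparison of regimens. The test was a limma fit on all 22 arrays with Benjamini-Hochberg adjustment over 22203 probe sets, and a call needed an adjusted p under 0.05. The background was equally empty: 0.0% of probe sets were called in each of the 6 pairwise comparisons and in the F test over the 4 groups. At an unadjusted p under 0.05, 0 of 8 genes passed for obese against control, where 4.03% of all probe sets did. For formerly obese against obese the count was 3 of 8 (Ptges2, Hpgd and Ptger1) against 5.69% of all probe sets. For obese sulindac against obese it was 1 of 8 (Ptges) against 6.55%, and for obese sulindac against control 1 of 8 (Ptger2) against 6.63%. Formerly obese against control gave 2 of 8 (Ptges2 and Ptger1) against 5.54%, and formerly obese against obese sulindac gave 2 of 8 (Ptges2 and Ptger2) against 6.62%. The F test gave 2 of 8 (Ptges2 and Ptger2) against 6.0%. For 0 of 8 genes did the tumours of 2 regimens fail to overlap. Over all probe sets the groups did not overlap in 0.383% for obese against control, 0.878% for formerly obese against obese and 0.676% for sulindac against obese. The share was 0.297% for sulindac against control, 0.423% for formerly obese against control and 0.567% for formerly obese against sulindac, so 0 of 8 is near the background. These comparisons share arrays, so the counts are not independent of each other. The number of arrays limits the precision, and p-values measure the spread between single tumours of different mice.

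The genes differed in how much they varied between tumours. Hpgd had an SD of 1.90 over the 22 tumours, above that of 99.6% of probe sets, and Ptgs2 an SD of 1.36, above that of 98.1%. Ptges and Ptger4 followed with SDs of 0.624 and 0.601. The SDs of Ptger2, Ptges2, Ptger1 and Ptger3 were 0.484, 0.386, 0.324 and 0.307. Ptgs2 and Hpgd therefore had the widest intervals on every difference between regimens.

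**Figure D1:**
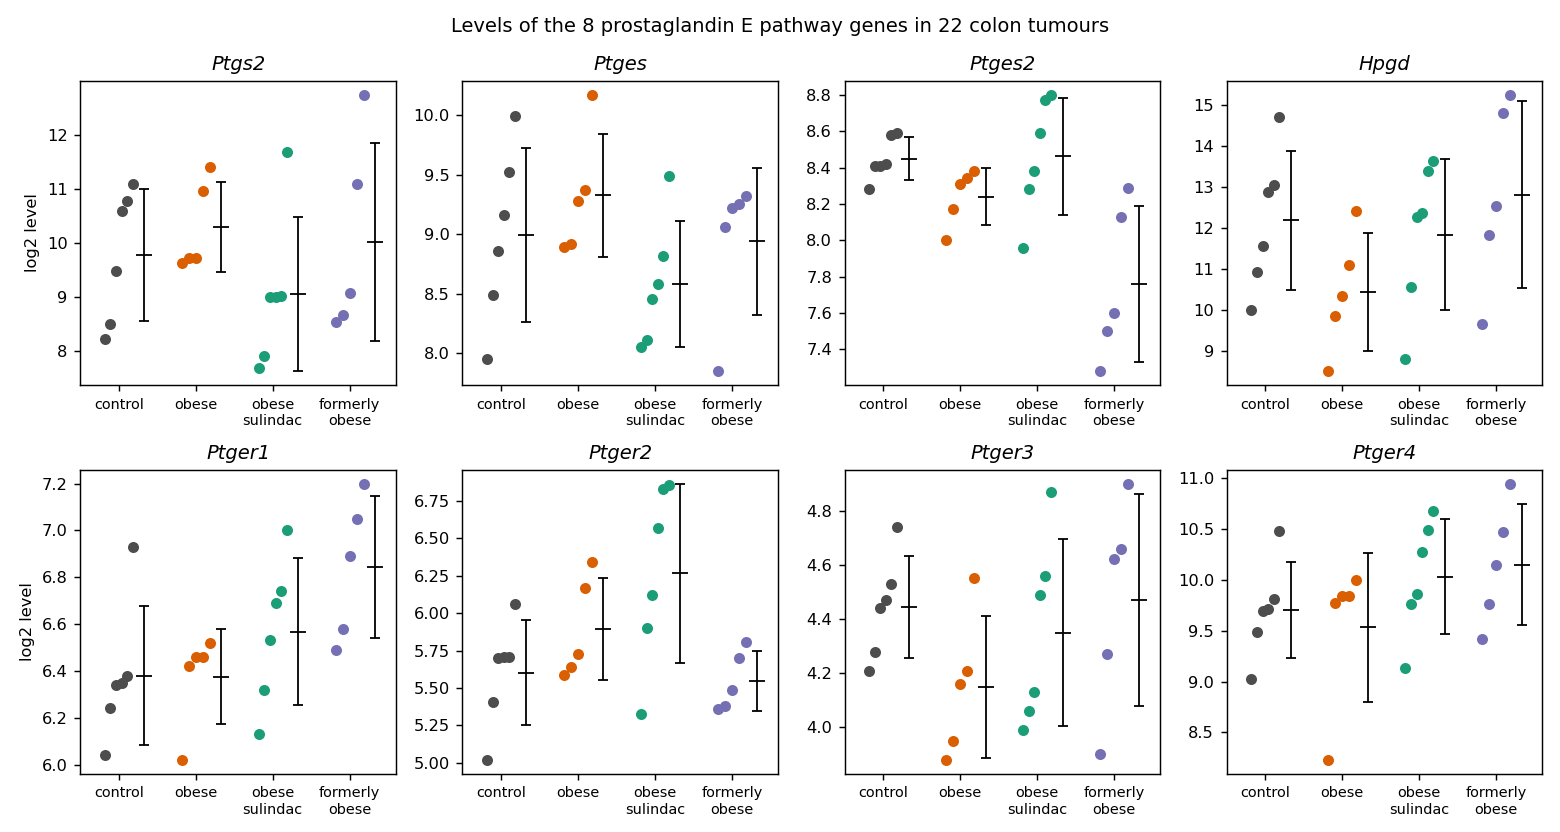
Log2 array level (vertical axis) of each prostaglandin E gene, 1 panel a gene, in every tumour of the 4 regimens (horizontal axis); points are mice, and the bars are the group mean and SD. Ptgs2 and Hpgd spread most over the 22 tumours, from 7.68 to 12.74 and from 8.51 to 15.24, and for each gene every pair of regimens overlaps.

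Ptgs2 encodes cyclooxygenase-2, the inducible enzyme that commits arachidonic acid to prostanoids. In the obese tumours it was at 11.41, 9.72, 10.95, 9.63 and 9.71, a mean of 10.28 ± 0.84 (SD, n = 5). In the obese sulindac tumours it was at 11.69, 9.0, 9.01, 9.0, 7.90 and 7.68, a mean of 9.05 ± 1.43 (SD, n = 6). So 5 of 6 sulindac tumours lay below every obese tumour, while the remaining one, Mouse_114, lay above every obese tumour. The difference was -1.24 ± 0.77 (SE), with a 95% interval from -2.83 to 0.36 (limma, adjusted p = 0.832; exact two-sided permutation p = 0.132 before adjustment). Without Mouse_114 it was -1.77, and without Mouse_96, an obese mouse with the highest level of its group, it was -0.96. Mouse_114 also had the highest neutrophil marker mean of the 22 tumours, 9.63, and Mouse_96 the next, 9.07. Mouse_140, the formerly obese tumour highest in Ptgs2, had a neutrophil marker mean of 6.57. Over the 22 tumours Pearson's r of Ptgs2 with that mean was 0.33 (permutation test, adjusted over the 128 marker relations p = 0.486). Without Mouse_114 and Mouse_96 the r was 0.09. Within single groups it was 0.86 in obese, 0.84 in obese sulindac, 0.26 in control and -0.37 in formerly obese tumours. The 7 measured markers averaged between 5.50 and 9.63 in the sulindac tumours and between 6.85 and 9.07 in the obese tumours. Their part in the Ptgs2 levels was not tested.

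In control tumours Ptgs2 ran from 8.21 to 11.09 with a mean of 9.77 ± 1.23 (SD, n = 6). The formerly obese tumours held both high and low levels, 11.09, 12.74, 8.66, 9.07 and 8.54, with a mean of 10.02 ± 1.84 (SD, n = 5). The value of 12.74, in Mouse_140, was the highest of all 22. Obese tumours differed from control by 0.51 (95% interval -1.08 to 2.11) and formerly obese from obese by -0.26 (-1.93 to 1.40). The first was 0.20 without Mouse_32, a control mouse, and 0.23 without Mouse_96. The second turned to 0.11 without Mouse_152 and was -0.94 without Mouse_140. The order of means was obese, formerly obese, control and obese sulindac, and no neighbours in it differed beyond their spread.

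Ptges encodes microsomal prostaglandin E synthase-1, the inducible terminal synthase that works with cyclooxygenase-2. It was at 10.17, 8.92, 8.89, 9.28 and 9.37 in the obese tumours, a mean of 9.33 ± 0.52 (SD, n = 5). In the obese sulindac tumours it was at 9.49, 8.58, 8.82, 8.46, 8.11 and 8.05, a mean of 8.59 ± 0.53 (SD, n = 6). Again 5 of 6 sulindac tumours lay below every obese tumour, and Mouse_114 was the exception for Ptges as for Ptgs2. The difference was -0.74 ± 0.35 (SE; 95% interval -1.46 to -0.02), which did not pass the test (limma, adjusted p = 0.761; exact two-sided permutation p = 0.0498 before adjustment). It ranged from -0.92 without Mouse_114 to -0.53 without Mouse_96. Control tumours spread from 7.95 to 9.99, a mean of 9.0 ± 0.73 (SD, n = 6), and overlapped both. In the formerly obese group 4 of 5 tumours sat between 9.06 and 9.32, and Mouse_134 was at 7.85, the lowest of the 22. The difference of formerly obese from obese, -0.39 (95% interval -1.14 to 0.37), was -0.11 without Mouse_134. Means ran in the order obese, control, formerly obese and obese sulindac, and each overlapped the next.

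Ptges2 encodes the other membrane-associated PGE synthase, which is made constitutively in most tissues. It had the smallest unadjusted p of the 8 genes in the F test over the 4 groups, 0.00217 (limma, adjusted p = 0.755). Its levels in the formerly obese tumours were 8.29, 7.28, 7.60, 7.50 and 8.13, a mean of 7.76 ± 0.43 (SD, n = 5). The control tumours lay close together, from 8.28 to 8.59, with a mean of 8.45 ± 0.12 (SD, n = 6), so that 4 of 5 formerly obese tumours fell below every control. The obese tumours were at 8.38, 8.31, 8.34, 8.0 and 8.17 (mean 8.24 ± 0.16), and the obese sulindac tumours ran from 7.96 to 8.80 (mean 8.46 ± 0.32). The difference of formerly obese from control was -0.69 ± 0.18 (SE; 95% interval -1.05 to -0.32; exact two-sided permutation p = 0.00433 before adjustment). The limma p of that difference was 0.000758, which became 0.750 when adjusted over all probe sets. The differences of formerly obese from obese, -0.48 (95% interval -0.86 to -0.10), and from obese sulindac, -0.70 (-1.07 to -0.34), had adjusted p-values of 0.866 and 0.548. Leaving out 1 mouse at a time moved the difference of formerly obese from control between -0.82 and -0.57. The means of obese sulindac, control and obese tumours differed by at most 0.22, and the limma intervals of those differences included 0. Obese differed from control by -0.21, with an exact two-sided permutation p of 0.0325 before adjustment (limma, adjusted p = 0.9998).

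Hpgd encodes 15-hydroxyprostaglandin dehydrogenase, which inactivates PGE2 and is made by mature colonocytes. It ranged from 8.51 in Mouse_96, an obese mouse, to 15.24 in Mouse_134, a formerly obese one. The obese tumours were at 8.51, 10.35, 12.40, 11.09 and 9.85, the lowest mean of the 4 groups, 10.44 ± 1.44 (SD, n = 5). The formerly obese tumours were at 15.24, 9.66, 14.79, 12.54 and 11.82, the highest mean, 12.81 ± 2.28 (SD, n = 5). Of these, 3 of 5 lay above every obese tumour, and Mouse_140 lay below 4 of 5 obese tumours. The difference was 2.37 ± 1.07 (SE; 95% interval 0.16 to 4.58; limma, adjusted p = 0.872; exact two-sided permutation p = 0.0952). It was 1.76 without Mouse_134 and 3.16 without Mouse_140. Absorptive colonocyte markers, 9 measured, averaged between 9.14 and 11.9 in the obese tumours and between 10.8 and 14.7 in the formerly obese. The 14.7 was Mouse_134, and the next formerly obese tumour was at 12.8. Mouse_146, with Hpgd at 14.79, was the lowest of its group in these markers, at 10.8. The part of these markers in the Hpgd difference was not tested.

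Control tumours ran from 10.0 to 14.69 in Hpgd with a mean of 12.19 ± 1.69 (SD, n = 6), and sulindac tumours from 8.81 to 13.63 with a mean of 11.84 ± 1.84 (SD, n = 6). Obese tumours differed from control by -1.75 ± 1.02 (SE; 95% interval -3.86 to 0.37). Sulindac tumours differed from obese by 1.40 ± 1.02 (SE; 95% interval -0.72 to 3.52). The lowest sulindac tumour was again Mouse_114, without which that difference was 2.0, and without Mouse_96 of the obese group it was 0.92. Both intervals include 0 and extend beyond 3 log2 units on 1 side. These comparisons therefore do not show whether obesity or sulindac changed Hpgd. The interval of the diet switch given above excluded 0, but that difference did not pass adjustment either. Means ran in the order formerly obese, control, obese sulindac and obese, and neighbours overlapped.

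**Figure D2:**
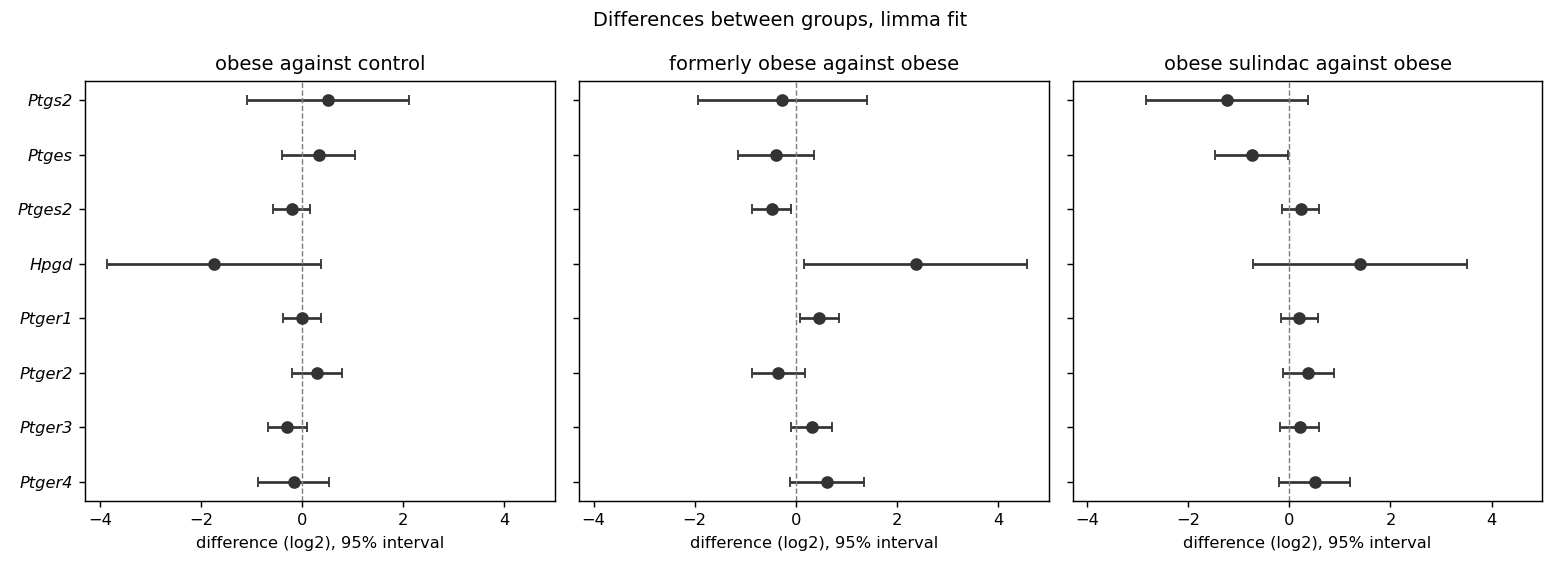
Differences in log2 level with 95% intervals (horizontal axis) for each gene (vertical axis) from the limma fit, in 3 panels: obese against control on the left, the diet switch against obese in the middle, and sulindac against obese on the right. Intervals of Hpgd and Ptgs2 are the widest; those that do not reach 0 are Ptges2, Hpgd and Ptger1 in the middle panel and Ptges in the right one, none of which passed adjustment over all probe sets.

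Ptger1 encodes EP1, the receptor that signals through calcium. It was at 7.05, 6.89, 6.58, 7.20 and 6.49 in the formerly obese tumours (mean 6.84 ± 0.30, SD, n = 5) and at 6.46, 6.52, 6.46, 6.42 and 6.02 in the obese tumours (mean 6.38 ± 0.20, SD, n = 5). Hence 4 of 5 formerly obese tumours lay above every obese tumour. The difference was 0.47 ± 0.18 (SE; 95% interval 0.08 to 0.85; limma, adjusted p = 0.866; exact two-sided permutation p = 0.0159 before adjustment). Against control, which ran from 6.04 to 6.93 with a mean of 6.38 ± 0.30 (SD, n = 6), the formerly obese difference was 0.46 (95% interval 0.09 to 0.83; limma, adjusted p = 0.868). The control and obese means were equal to 2 decimals, and sulindac tumours lay between 6.13 and 7.0 (mean 6.57 ± 0.31). Stem cell markers, 5 measured, averaged 10.2 to 12.6 in the formerly obese tumours, 11.9 to 12.9 in the obese and 11.2 to 13.4 in control. Their part in the Ptger1 differences was not tested.

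Ptger2 encodes EP2, a receptor that raises cyclic AMP. Its highest levels were in sulindac tumours, at 6.12, 6.57, 6.83, 6.86, 5.90 and 5.33, a mean of 6.27 ± 0.60 (SD, n = 6). Control tumours ran from 5.02 to 6.06 with a mean of 5.60 ± 0.35 (SD, n = 6), and 4 of 6 sulindac tumours lay above them all. The difference from control was 0.67 ± 0.23 (SE; 95% interval 0.19 to 1.15), with an adjusted p of 0.648 (limma) and an exact two-sided permutation p of 0.0455 before adjustment. Formerly obese tumours lay close together, at 5.36, 5.49, 5.81, 5.38 and 5.70 (mean 5.55 ± 0.20), which is -0.72 from sulindac tumours (95% interval -1.22 to -0.22; limma, adjusted p = 0.653). The obese tumours, mean 5.89 ± 0.34 (SD, n = 5), fell between, and the sulindac difference from them was 0.37 (95% interval -0.13 to 0.88). Macrophage and monocyte markers, 7 measured, averaged 10.1 to 11.8 in the sulindac tumours, 9.99 to 11.3 in control and 10.2 to 11.6 in the formerly obese. Their part in these differences was not tested.

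Ptger4 encodes EP4, the other receptor coupled to cyclic AMP. It was at 8.23, 9.77, 9.84, 10.0 and 9.84 in the obese tumours, so that 4 of 5 sat within a narrow band and Mouse_96 lay far below. Formerly obese tumours were at 9.42, 10.95, 10.47, 10.15 and 9.76, a mean of 10.15 ± 0.60 (SD, n = 5) against 9.54 ± 0.74 in the obese group. The difference of 0.61 ± 0.35 (SE; 95% interval -0.12 to 1.35) was 0.29 without Mouse_96. Sulindac tumours ran from 9.13 to 10.68, a mean of 10.03 ± 0.57 (SD, n = 6), and their difference from obese, 0.50 (95% interval -0.21 to 1.20), was 0.17 without Mouse_96. Control tumours averaged 9.71 ± 0.47 (SD, n = 6).

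Ptger3 encodes EP3, which lowers cyclic AMP. All 22 tumours lay between 3.88 and 4.90, near the bottom of the arrays' range. Group means were 4.45 ± 0.19 in control, 4.15 ± 0.26 in obese, 4.35 ± 0.35 in sulindac and 4.47 ± 0.39 in formerly obese tumours. The widest gap, formerly obese against obese, was 0.32 (95% interval -0.08 to 0.72).

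The rest of the pathway was followed through 6 lists of neighbouring genes, 43 of them measured. None passed the test for obesity (obese against control), for the diet switch (formerly obese against obese) or for sulindac (within obese mice). In that order, 0, 2 and 3 of 43 had an unadjusted p under 0.05. Over all probe sets the shares were 4.03%, 5.69% and 6.55%, so the last 2 counts are near the background. Of the other prostanoid synthases 7 of 7 had a lower mean in obese than in control tumours, with a median difference of -0.07 against -0.004 over all probe sets. The 5 other prostanoid receptors all had a higher one, with a median of 0.14. All 5 lay near the bottom of the arrays' range. Their mean levels over all tumours ran from 4.16 in Tbxa2r to 4.53 in Ptgdr, Ptgdr2 and Ptgir. A higher mean in obese than in control tumours was found for 10895 of all 22203 probe sets. Obese tumours differed from control by -0.44 (95% interval -0.97 to 0.10) in Prxl2b, a prostaglandin F synthase, and by 0.24 (-0.10 to 0.57) in Ptgdr2, a prostaglandin D2 receptor. In the same comparison Pla2g5, a secreted phospholipase A2, differed by 0.66 (-0.24 to 1.55) and Cysltr1, a receptor for cysteinyl leukotrienes, by 0.58 (-0.21 to 1.38).

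Arachidonic acid release and leukotriene genes gave the smallest p-values of those lists after the diet switch. Pla2g5 averaged 5.49 ± 0.56 in formerly obese and 6.64 ± 0.92 in obese tumours, a difference of -1.15 (95% interval -2.08 to -0.21; limma, adjusted p = 0.866). Cysltr1 averaged 6.07 ± 0.59 and 6.93 ± 0.91 in the same groups, a difference of -0.86 (95% interval -1.69 to -0.03; limma, adjusted p = 0.872). Alox5ap, the partner protein of 5-lipoxygenase, differed by -0.57 (95% interval -1.26 to 0.12). In 7 of 9 leukotriene and lipoxygenase genes the formerly obese mean was lower than the obese, with a median of -0.29. Of all probe sets, 11257 of 22203 had a higher mean in the formerly obese, with a median difference of 0.004.

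The cyclic AMP responsive genes are early transcripts that EP2 and EP4, among many other receptors, can induce. Here 7 of 9 had a higher mean in formerly obese than in obese tumours and the median difference was 0.63, though none passed. Over all probe sets, 11257 of 22203 had a higher mean in that comparison. The tumour of Mouse_140, formerly obese, was the highest of the 22 in 6 of the 9. Without it 6 of 9 had a higher mean and the median was 0.36, and without Mouse_134 the values were 6 of 9 and 0.38; leaving out mice here was chosen after seeing the data. Nr4a2, a nuclear receptor of that list, averaged 10.99 ± 1.68 in formerly obese tumours and 9.99 ± 0.63 in obese tumours, a difference of 0.998, which was 0.39 without Mouse_140. Under sulindac 4 of 9 had a higher mean than in obese tumours and the median was -0.05. Over all probe sets, 11480 of 22203 had a higher mean under sulindac. Per1, a clock gene that cyclic AMP induces, averaged 10.04 ± 0.81 in sulindac and 9.06 ± 0.61 in obese tumours, a difference of 0.98 (95% interval 0.17 to 1.79; limma, adjusted p = 0.700). Vegfa, a vascular growth factor, differed by -0.60 in the same comparison (95% interval -1.29 to 0.10). Ptgr2, a reductase that acts after Hpgd, averaged 10.58 ± 0.26 in sulindac and 10.96 ± 0.17 in obese tumours, a difference of -0.38 (95% interval -0.73 to -0.03; limma, adjusted p = 0.738). Ptgdr, the other prostaglandin D2 receptor, differed by -0.43 (95% interval -0.83 to -0.03, limma adjusted p = 0.747). It averaged 4.27 in sulindac and 4.69 in obese tumours, near the bottom of the arrays' range.

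The 8 genes were also set against each other over the 22 tumours, in 28 pairs. The 3 tumours highest in Ptgs2 were also the 3 lowest in Hpgd, and they came from 3 different groups. Mouse_140, formerly obese, had Ptgs2 at 12.74 and Hpgd at 9.66. Mouse_114, under sulindac, had 11.69 and 8.81, and Mouse_96, obese, had 11.41 and 8.51. Mouse_134 was the clearest exception, with Ptgs2 at 11.09 beside the highest Hpgd level, 15.24. Over all 22 tumours Pearson's r was -0.42 (permutation p = 0.0502, adjusted over the 28 pairs p = 0.268) and Spearman's rho was -0.43 (permutation p = 0.0470). The r was -0.45 on deviations from the group means and -0.24 without Mouse_140 and Mouse_114, the tumours farthest from the Ptgs2 median. Leaving out 1 tumour at a time kept r between -0.57 (without Mouse_134) and -0.35 (without Mouse_114).

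**Figure D3:**
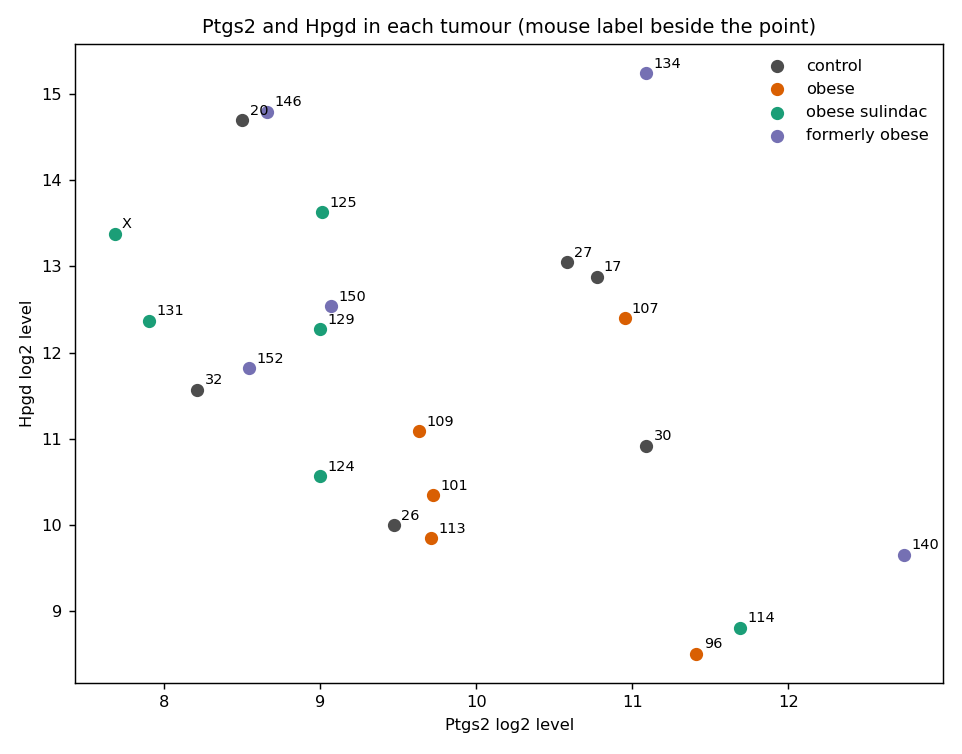
Log2 level of Hpgd (vertical axis) against log2 level of Ptgs2 (horizontal axis) in the 22 tumours, 1 point a mouse, marked by regimen. The tumours of Mouse_140, Mouse_114 and Mouse_96 lie at the lower right, and Mouse_134 lies at the top.

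Hpgd ran opposite to Ptges as well, with r = -0.50 (permutation p = 0.0188, adjusted over the 28 pairs p = 0.143; rho = -0.46), and -0.27 without the tumours farthest from the Ptges median. Of the 28 pairs none passed the adjustment with all 22 tumours. Ptgs2 and Ptger4 had r = -0.33 (permutation p = 0.140). Without Mouse_140, which was the highest tumour in both, r was -0.66 and that pair passed (permutation test, adjusted over the 28 pairs p = 0.0202). Without Mouse_96, the lowest tumour in Ptger4, r was -0.21. The pair passed on leaving out no tumour other than Mouse_140.

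The 8 genes were then set against mean levels of 16 cell type marker lists, in 128 relations over the 22 tumours. None passed adjustment over the 128, and the smallest adjusted permutation p was 0.0627, shared by 4 relations. Hpgd was higher where absorptive colonocyte markers were higher, with r = 0.63 (permutation p = 0.00164; rho = 0.53), or 0.41 without Mouse_134 and Mouse_96, the tumours farthest from the median of those markers. Ptger2 followed macrophage and monocyte markers with r = 0.65 (permutation p = 0.00118, rho = 0.59) and T cell markers with r = 0.62 (permutation p = 0.00196). Without the 2 tumours farthest from the median of each list, r was 0.53 and 0.42. Within groups the macrophage and monocyte r was 0.94 under sulindac, 0.38 in control, 0.39 in obese and 0.30 in formerly obese tumours. Ptger1 ran opposite to stem cell markers with r = -0.63 (permutation p = 0.00176; rho = -0.67). Hpgd also had r = 0.54 with goblet cell markers and r = -0.56 with both endothelial and neutrophil markers. Ptger3, with all levels near the bottom of the arrays' range, had r = 0.58 with absorptive colonocyte and 0.55 with goblet cell markers. Ptgs2 had no |r| above its 0.47 with endothelial markers.

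**Figure D4:**
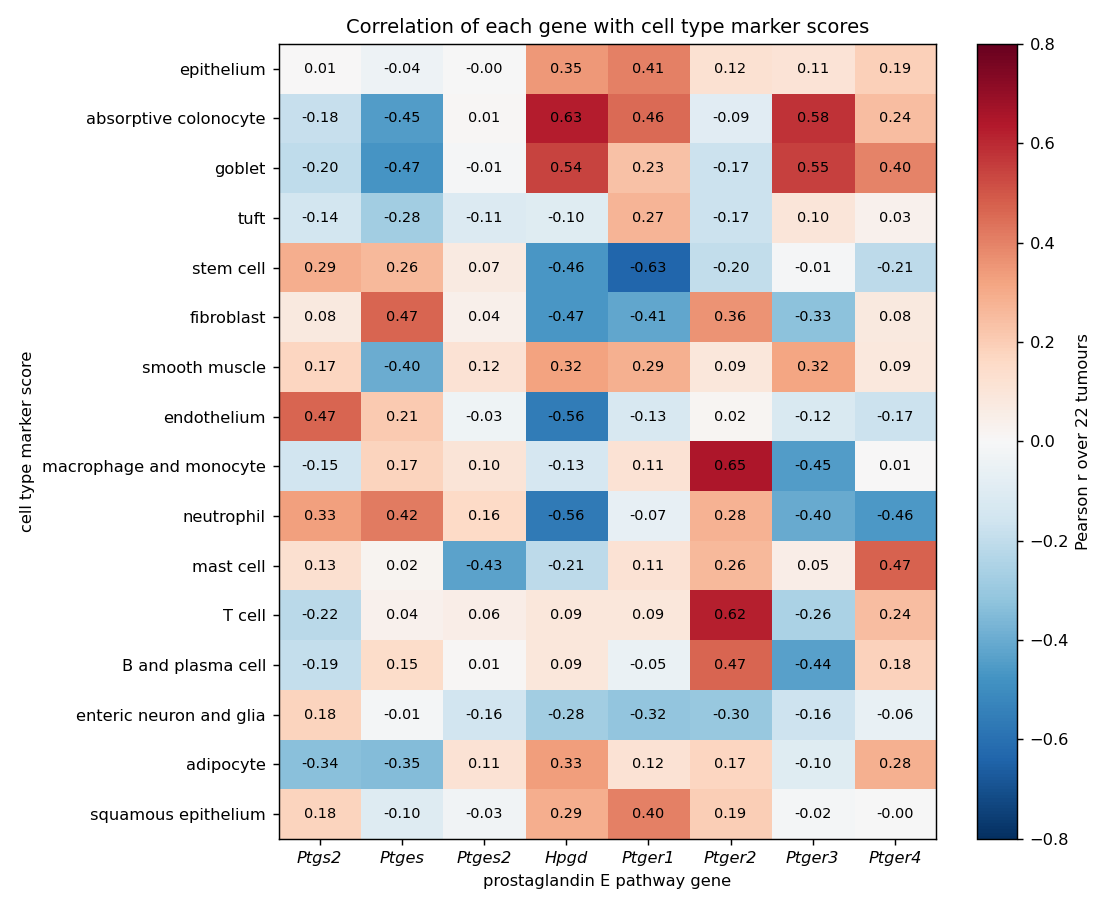
Pearson's r over the 22 tumours between each prostaglandin E gene (columns) and the mean level of each of the 16 cell type marker lists (vertical axis), with r printed in each cell and coloured from blue (negative) to red (positive). The strongest colours are those of Hpgd with absorptive colonocyte, Ptger2 with macrophage and T cell, and Ptger1 with stem cell markers.

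The genes whose levels ran most like each of the variable members over the 22 tumours were taken from 9888 genes with a mean level at or above the median. They are the extremes of a long ranking and carry no test. Ptgs2 was followed most closely by Il11 (r = 0.77), a cytokine of the interleukin-6 family that ranged from 4.99 to 12.85, and by Ier3 (r = 0.77), an immediate early gene. Inhba, an activin subunit, had r = 0.76, Trp53bp1 had r = 0.75 and Junb, a subunit of the AP-1 transcription factor, had r = 0.75. Pus10 had the lowest r with Ptgs2, -0.80. Ptges was followed by Mmp3 (r = 0.81), a stromelysin that ranged from 5.60 to 10.25, then by Cyb5r1 (r = 0.76), Tmem143 (r = 0.73), Pf4 (r = 0.72) and Plau (r = 0.70), the urokinase plasminogen activator. Its lowest r was with Blmh, -0.82. Hpgd was followed by Txnip (r = 0.82), an inhibitor of thioredoxin that ranged from 14.59 to 17.09, and by Sash1 (r = 0.80) and Ap1s3 (r = 0.78). Slc26a2, a sulfate transporter of colonocytes, had r = 0.77 with Hpgd, and Ppil3 had the lowest, -0.78. Ptger4 was followed by Usp7 (r = 0.73) and Atp7a (r = 0.69), with Kdm5c at the other end (r = -0.71). Without the 2 tumours farthest from the Ptger4 median, r was 0.62 for Usp7, 0.43 for Atp7a and -0.59 for Kdm5c. The 5 nearest genes of Ptgs2, of Ptges and of Hpgd held no gene in common.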

How the data were processed

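The authors' deposited values are log2 levels for 22203 probe sets on 22 arrays, made with Transcriptome Analysis Console 4.0 per the submitters' processing notes. How signals were corrected for background, summarized and normalized, and which genome build was used, is not stated there or in the labels, and base 2 was read from the range. Platform annotation gave 1 symbol to 19572 probe sets and none to 2631. Groups came from the sample titles and the diet and drug labels.

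The deposited levels were used as they stand. A limma 3.58.1 (R 4.3.3) model with 4 group means was fitted to all probe sets and moderated across them, with Benjamini-Hochberg adjustment over 22203. Single genes were also tested by exact two-sided permutation over mice. Correlations used 100000 permutations. A marker score is the mean log2 level of a list's measured genes. Alternatives were array weights, an intensity trend or robust moderation, a filter on dim probe sets, a fit of the 2 groups alone, quantile normalization, median centring and leaving out each mouse. Scripts were tested on simulated data. Outside the 8 genes, those named were, per comparison, the 4 neighbouring pathway genes with the smallest p, and, for members with an SD of at least 0.5, genes among the 5 highest and 3 lowest by r. Members and lists were chosen with earlier results of these data known.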

Additional observations from a re-analysis of the deposited data

Results flagged for a closer look

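In the 32 sets of 1 gene in 1 group, 4 tumours lay far from the rest of their group by Dixon's test at the 95% level, a test that marks some sets by chance alone. Ptgs2 in the obese sulindac tumour of Mouse_114 was at 11.69, with a gap of 0.668 of the group's range. Ptges in the formerly obese tumour of Mouse_134 was at 7.85, with a gap of 0.823 of the range. Ptger1 in the obese tumour of Mouse_113 was at 6.02, with a gap of 0.80 of the range. Ptger4 in the obese tumour of Mouse_96 was at 8.23, with a gap of 0.870 of the range.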

How the results depend on the processing

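No alternative brought any of the 8 genes past the test. The filter on dim probe sets kept means at or above the median of 6.77. Ptger1, Ptger2 and Ptger3, with means of 6.54, 5.84 and 4.36, were therefore not tested under that filter. Of the 48 differences between regimens, 38 kept their sign under every alternative run. With array weights, Ptger1 in obese against control turned to 0.009 and Ptger3 in formerly obese against control to -0.004. Ptges2 in obese sulindac against control turned to -0.021 after quantile normalization and -0.023 after median centring, and Ptger3 in formerly obese against control to -0.003 after quantile normalization. Leaving out 1 mouse at a time, obese against control ran from -0.072 to 0.11 for Ptger1 and -0.30 to 0.16 for Ptger4. Formerly obese against obese ran from -0.94 to 0.11 for Ptgs2. Obese sulindac against control ran from -0.052 to 0.12 for Ptges2 and -0.78 to 0.26 for Hpgd. Formerly obese against control ran from -0.43 to 0.62 for Ptgs2, -0.26 to 0.22 for Ptges, -0.083 to 0.17 for Ptger3 and -0.17 to 0.038 for Ptger2. Formerly obese against obese sulindac ran from -0.083 to 0.30 for Ptger4. Over all probe sets, leaving out 1 mouse gave 0 to 1 calls in obese sulindac against obese and in formerly obese against control. The 28 pairs gave 0 to 1 calls (Ptgs2 with Ptger4 without Mouse_140), and the 128 marker relations 0 to 6, with 3 without Mouse_101, 6 without Mouse_152 and 1 each without Mouse_124, Mouse_140 and Mouse_146. On deviations from group means 1 of the 128 passed, Ptges2 with mast cell markers (r = -0.69, permutation p adjusted 0.0422), close enough to the threshold that the draw of permutations could move it. The causes were not tested. No paired analysis was possible because the groups share no mouse numbers. Averaging several probe sets was not run, since each gene has 1.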

Other observations

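Pla2g4c, which encodes a cytosolic phospholipase A2, was the most variable of the 43 neighbouring pathway genes, with an SD of 2.17 over the 22 tumours; it was picked after its values were seen. Its median was 5.56, but it reached 14.48 in the obese sulindac tumour of Mouse_131 and 9.35 in the next highest. Mouse_131 had the highest tuft cell marker mean of the 22 tumours, 7.50, where the control, obese and formerly obese groups reached at most 6.23. It also had the highest mast cell marker mean, 11.18, with Mouse_140 next at 11.11. The same tumour was highest in Alox5 (7.67), Alox5ap (9.07) and Ltc4s (6.24). The part of either marker list in the Pla2g4c level was not tested.

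Mouse_140, the tumour highest in Ptgs2, was also the highest of the 22 in Nr4a1 (13.38), Nr4a2 (13.44), Nr4a3 (12.21), Fos (14.51) and Dusp1 (15.45), immediate early genes of the cyclic AMP responsive list. These genes too were chosen after their values were seen.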
